A study of Mus musculus with 8 samples.

Results

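The transcription factor complex of TAL1, GATA1 and LDB1 was followed at the mRNA level in mouse fetal liver with and without the erythroid factor EKLF. The members were 10 genes, Tal1, Lyl1, Tcf3, Tcf12, Gata1, Lmo2, Ldb1, Cbfa2t3, Ssbp2 and Ssbp3, out of 18193 genes that the array names. Every probe set whose platform annotation gives a single symbol, and that symbol a member, was taken, which gave 23 probe sets. Wild-type (WT) and Eklf knockout (KO) groups held 4 embryos each at E14.5, with 1 array per embryo and no treatment or culture. The KO embryos were homozygous for the knockout, in B6 mouse lines made with an engineered Eklf locus in a bacterial artificial chromosome and with E2A-Cre mice. The sources used here do not say whether the embryos were littermates. RNA came from whole liver that had been pipetted into suspension, so that red cell precursors, hepatocyte precursors, endothelium, megakaryocytes and macrophages could all contribute.

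In red cell precursors the complex is built on DNA. TAL1, a basic helix-loop-helix protein, pairs with an E protein (from Tcf3 or Tcf12) to bind an E-box, and GATA1 binds a GATA motif nearby. LMO2 binds TAL1 and GATA1 at once and hands them to LDB1, a protein that self-associates and can hold distant DNA sites together, while the single-stranded DNA-binding proteins SSBP2 and SSBP3 protect LDB1 from degradation. LYL1 is a close relative of TAL1, and CBFA2T3 (ETO2) is a corepressor that joins the complex in immature cells. The complex activates many red cell genes, Klf1 among them, and EKLF itself binds CACCC motifs.

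Klf1, the gene of EKLF and the target of the knockout, read 13.87 to 14.04 in the 4 WT arrays and 10.56 to 10.81 in the 4 KO arrays on the log2 scale. That is 9.81-fold lower in KO (limma, adjusted p = 5.9e-07), although the sources used here do not place its probe set relative to the deleted part. The signals are MAS5.0 intensities that the authors scaled to a common trimmed mean, the same in every array, and they were log2-transformed here. The level of one probe set says nothing about that of another, so what is compared below is WT with KO, for a probe set or for a ratio or sum of the same probe sets in every array. Over all 23379 probe sets tested the median log2 difference (KO minus WT) was 0.17. All WT arrays carry one code in their labels and all KO arrays another, and the sources used here do not say what the codes stand for, so genotype and whatever they mark cannot be told apart. By the sex-linked genes Xist and Kdm5d, WT replicate 1 stood apart from every other array, WT and KO. It read 13.03 for Xist, against 5.37 to 6.84 elsewhere, and 3.41 for Kdm5d, against 8.93 to 9.54. The groups may thus not match in sex, which the labels do not give, and its part in the differences was not tested.

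Among the mRNAs of the complex, those of the core partners Tal1, Lmo2 and Gata1 and of Ssbp3 were lower in KO, and those of Ssbp2 and Cbfa2t3 were higher. On the brightest probe set of each gene (the one with the highest mean over the 8 arrays), Lmo2 was 3.70-fold, Tal1 2.49-fold, Ssbp3 2.41-fold and Gata1 1.31-fold lower in KO. Ssbp2 was 2.06-fold and Cbfa2t3 1.59-fold higher. Ldb1, Lyl1, Tcf3 and Tcf12 did not pass the test on that probe set (limma, adjusted p of 0.1, 0.96, 0.41 and 0.11).

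**Figure D1:**
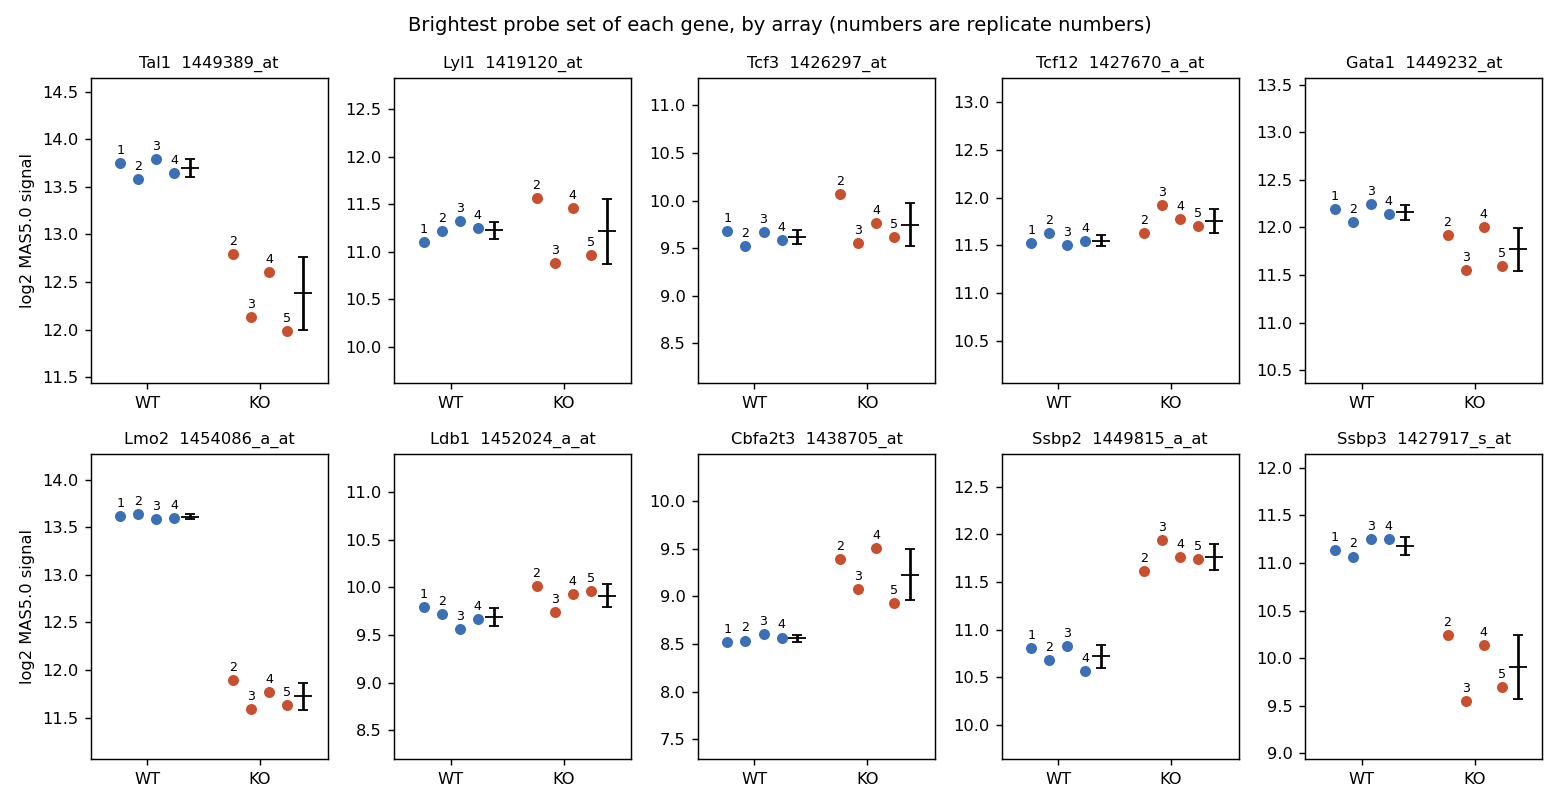
Log2 MAS5.0 signal (vertical axis) of the brightest probe set of each of the 10 genes in 4 WT arrays (blue) and 4 KO arrays (red). Numbers are replicate numbers, bars are mean and SD, and every panel spans the same number of log2 units around its own centre. Lmo2, Tal1 and Ssbp3 have all KO points below all WT points, Ssbp2 and Cbfa2t3 have them above, and in Ldb1, Lyl1, Tcf3 and Tcf12 the groups overlap.

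Tal1 encodes the helix-loop-helix subunit without which no blood cell forms. Its 1 probe set (1449389_at) read 13.75, 13.58, 13.79 and 13.65 in the WT embryos (replicates 1, 2, 3 and 4, the order used throughout) and 12.79, 12.13, 12.61 and 11.99 in the KO embryos (replicates 2, 3, 4 and 5). No KO array came near the lowest WT array, and the KO arrays were spread more widely, with replicates 2 and 4 above replicates 3 and 5. The means were 13.69 ± 0.096 (SD, n = 4 embryos) and 12.38 ± 0.38 (SD, n = 4 embryos), a log2 difference of -1.31 (SE 0.18, 95% interval -1.73 to -0.90; limma, adjusted p = 0.00048). Only 2.34% of all tested probe sets had a lower difference. In whole liver, fewer cells of a type and less RNA per cell cannot be told apart, which holds for all values here. All 5 red cell markers that were measured were lower in KO as well (1 of them with hybridisation control scaling). For Slc4a1, though, the other tested probe sets differed by -1.46 and 1.46. The signals of these markers, on the brightest probe set of each, summed to between 75800 and 77900 in WT arrays. In KO replicates 2, 3, 4 and 5 they summed to 38000, 36900, 34800 and 36100, an order unlike that of Tal1. Their part in the fall of Tal1 was not tested.

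Tal1 has 2 annotated start windows in the RefSeq table used here (build GRCm38.p6). The window of the more upstream start, chr4:115056176-115056475 on the plus strand, is shown because EKLF binds CACCC motifs and Tal1 was among the genes that differed without it. The study places a Tal1 start used in red cells further upstream, so that most of this window lies inside its exon. The sequence before that start is not shown here. It holds the CACCC box through which the study reports that EKLF activates Tal1. Gata1 (chrX:7967861-7968160, minus strand), Ssbp3 (the more upstream of 2 starts, chr4:106911220-106911519, plus strand) and Ssbp2 (chr13:91460847-91461146, plus strand) are shown beside it as a gene with a small fall, a gene with a fall like that of Tal1 and a gene with a rise. Each window runs 5′ to 3′ from 250 bases before to 50 bases after a start, and capitals mark CACCC and GATAA read on either strand (GGGTG and TTATC on the reverse).
Tal1: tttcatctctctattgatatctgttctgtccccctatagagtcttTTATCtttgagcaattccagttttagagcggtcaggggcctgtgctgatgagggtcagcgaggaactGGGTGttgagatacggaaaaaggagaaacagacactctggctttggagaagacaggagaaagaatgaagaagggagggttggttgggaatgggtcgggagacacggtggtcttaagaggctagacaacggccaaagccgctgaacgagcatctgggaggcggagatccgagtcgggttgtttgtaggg
Gata1: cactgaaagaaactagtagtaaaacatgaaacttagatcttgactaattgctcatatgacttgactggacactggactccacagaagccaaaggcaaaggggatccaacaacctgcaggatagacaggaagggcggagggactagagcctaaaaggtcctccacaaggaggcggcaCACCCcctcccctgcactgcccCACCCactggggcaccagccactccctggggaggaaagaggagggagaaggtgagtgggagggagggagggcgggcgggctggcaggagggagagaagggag
Ssbp3: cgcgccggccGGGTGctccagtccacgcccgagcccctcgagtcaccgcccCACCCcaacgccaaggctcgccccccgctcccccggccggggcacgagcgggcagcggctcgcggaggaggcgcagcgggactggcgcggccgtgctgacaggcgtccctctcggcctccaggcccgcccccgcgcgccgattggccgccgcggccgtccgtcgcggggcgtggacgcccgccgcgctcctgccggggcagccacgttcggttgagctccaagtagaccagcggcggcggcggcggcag
Ssbp2: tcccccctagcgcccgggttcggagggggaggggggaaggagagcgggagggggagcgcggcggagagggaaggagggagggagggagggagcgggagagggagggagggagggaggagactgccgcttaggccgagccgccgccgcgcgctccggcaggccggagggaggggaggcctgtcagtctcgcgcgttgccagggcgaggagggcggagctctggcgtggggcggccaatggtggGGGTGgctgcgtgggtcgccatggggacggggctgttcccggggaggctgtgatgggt
The Tal1 window holds a reverse CACCC with its first base at -138 (the start counted as 0) and a reverse GATAA at -205. The Gata1 window holds CACCC at -74 and -52, that of Ssbp3 holds it at -199 and, reversed, at -240, and that of Ssbp2 holds it reversed at -8. Whether any of these matches bears on the direction of a difference was not tested. Over the 16 windows of the 9 members in the table (all but Lmo2), CACCC occurred in 12, GATAA in 4 and the E-box CANNTG in 11, with no match overlapping another. Of all 32851 windows of this length, 57.5% held CACCC, 25.4% GATAA and 72.3% CANNTG. A match is a string of letters and not a bound site.

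Lyl1, the relative that can stand in for TAL1 in adult blood, had nearly the same mean in both groups. Its probe set (1419120_at) read 11.11, 11.22, 11.33 and 11.25 in WT and 11.56, 10.88, 11.46 and 10.96 in KO. The KO group lay on both sides of WT, with replicates 2 and 4 above every WT array and replicates 3 and 5 below every WT array. The means were 11.23 ± 0.092 (SD, n = 4) and 11.22 ± 0.34 (SD, n = 4). The log2 difference was -0.011 (SE 0.17, 95% interval -0.39 to 0.37; limma, adjusted p = 0.96), an interval that still holds a change of either sign.

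Tcf3 and Tcf12 encode the E proteins that pair with TAL1. For Tcf3, no probe set passed the test. The brightest (1426297_at) read 9.68, 9.53, 9.67 and 9.59 in WT and 10.06, 9.55, 9.76 and 9.62 in KO, where only replicates 2 and 4 exceeded all WT arrays. Its log2 difference was 0.13 (SE 0.13, 95% interval -0.16 to 0.42; limma, adjusted p = 0.41), and the other probe sets differed by -0.072 (1427764_a_at) and -0.26 (1452542_x_at, a type that may also read related transcripts).

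The 5 probe sets of Tcf12 disagreed. The brightest (1427670_a_at) read 11.52, 11.63, 11.50 and 11.54 in WT and 11.62, 11.92, 11.78 and 11.70 in KO, a difference of 0.21 (SE 0.10, 95% interval -0.021 to 0.43; limma, adjusted p = 0.11). The groups overlapped there by the margin between WT replicate 2 and KO replicate 2. On 1421908_a_at, by contrast, the signal was 9.43, 9.67, 9.69 and 9.57 in WT and 10.64, 10.88, 10.67 and 10.63 in KO. Here the KO arrays lay clear of the WT arrays, 2.16-fold higher (log2 difference 1.11, SE 0.11; limma, adjusted p = 7.5e-05). The dim probe set 1439619_at was at least 1.44-fold higher (log2 difference 1.12, SE 0.34; limma, adjusted p = 0.023), although its WT mean was under a signal of 100 and the arrays overlapped, and this call was lost in 9 of 20 other settings, among them the fits that left out 1 array (WT replicates 1 and 2, KO replicates 3 and 5). The last 2, 1439209_at and 1446294_at, differed by 0.15 and -0.16 (limma, adjusted p of 0.32 and 0.64). The platform annotation gives the same symbol to all 5, and the sources used here do not say which transcripts each reads.

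Gata1, the X-linked master regulator of the red cell and megakaryocyte lineages, fell far less than Tal1. Its probe set (1449232_at) read 12.19, 12.06, 12.24 and 12.14 in WT and 11.92, 11.55, 12.002 and 11.59 in KO. No KO array reached the lowest WT array, but KO replicates 2 and 4 came close to it. The means were 12.16 ± 0.079 (SD, n = 4) and 11.77 ± 0.23 (SD, n = 4), a log2 difference of -0.39 (SE 0.13, 95% interval -0.68 to -0.098; limma, adjusted p = 0.031). WT replicate 1, which Xist sets apart, lay within the range of the other WT arrays for this X-linked gene. The call was lost in 11 of 22 other settings and its sign turned in 1, among them quantile normalization (-0.24, adjusted p = 0.15), and leaving out WT replicate 1, 3 or 4 (adjusted p of 0.070, 0.077 and 0.063) or KO replicate 3 or 5 (0.075 each; all limma).

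Lmo2, the bridge between TAL1, GATA1 and LDB1, had the deepest fall of the members. Its probe set (1454086_a_at) read 13.62, 13.64, 13.58 and 13.60 in WT and 11.90, 11.59, 11.77 and 11.63 in KO. The WT arrays were tightly grouped and all KO arrays lay below them. The means were 13.61 ± 0.025 (SD, n = 4) and 11.72 ± 0.14 (SD, n = 4), a log2 difference of -1.89 (SE 0.10, 95% interval -2.12 to -1.66; limma, adjusted p = 4.9e-06). Lmo2 was called lower in all 22 other settings, with differences from -2.15 to -1.08, and 1.08% of tested probe sets had a lower difference.

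Ldb1, the scaffold to which LMO2 attaches, did not pass the test. Its probe set (1452024_a_at) read 9.79, 9.72, 9.57 and 9.67 in WT and 10.02, 9.74, 9.93 and 9.96 in KO. KO replicate 3 lay inside the WT range and the other 3 KO arrays above it. The means were 9.69 ± 0.096 (SD, n = 4) and 9.91 ± 0.12 (SD, n = 4), a log2 difference of 0.22 (SE 0.10, 95% interval -0.012 to 0.46; limma, adjusted p = 0.1). Relative to the median of all probe sets the difference was 0.055, and 53.3% of tested probe sets had a lower one.

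The SSBP proteins, which shield LDB1 from breakdown, split in opposite directions. Ssbp2 was higher on the 3 probe sets whose means were above a signal of 100 in both groups. On the brightest (1449815_a_at) it read 10.81, 10.69, 10.83 and 10.57 in WT and 11.62, 11.94, 11.76 and 11.74 in KO, a log2 difference of 1.04 (SE 0.11, 95% interval 0.79 to 1.30; limma, adjusted p = 0.00012). On 1429951_at it read 7.58, 7.15, 7.68 and 7.36 in WT and 11.17, 11.19, 11.11 and 11.59 in KO, which is 14.1-fold higher (log2 difference 3.82, SE 0.16; limma, adjusted p = 2.2e-06). The KO arrays lay far above the WT arrays on this probe set, and 99.6% of tested probe sets had a lower difference. The third, 1438423_at, differed by 1.24 (SE 0.16; limma, adjusted p = 0.00033). The fold was thus 2.06, 2.37 and 14.1, and these 3 calls held in every other setting run. On 1451542_at the WT arrays read 1.96 to 5.05, below a signal of 100, and the KO arrays 8.70 to 8.96, at least 4.48-fold higher (limma, adjusted p = 0.00012). This probe set was tested through its KO signal alone, had to differ to be tested, and was left out where the minimum was applied to the mean of all arrays.

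Ssbp3 was lower on its brightest probe set (1427917_s_at), which read 11.14, 11.07, 11.25 and 11.25 in WT and 10.24, 9.55, 10.14 and 9.70 in KO. Again all KO arrays were below all WT arrays, and replicates 2 and 4 were above 3 and 5. The means were 11.18 ± 0.091 (SD, n = 4) and 9.91 ± 0.33 (SD, n = 4), a log2 difference of -1.27 (SE 0.16, 95% interval -1.64 to -0.90; limma, adjusted p = 0.00034). The other probe set (1425940_a_at) read 9.67, 9.71, 9.39 and 9.82 in WT and 9.39, 9.63, 9.07 and 9.41 in KO. There the groups overlapped and the difference of -0.28 (SE 0.15; limma, adjusted p = 0.14) was not called. It was called lower after quantile normalization (-0.46, adjusted p = 0.03) and with 75th percentile scaling (-0.54, adjusted p = 0.012), and higher with hybridisation control scaling (0.53, adjusted p = 0.0084; all limma).

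Cbfa2t3, the corepressor of the complex, rose. Its brightest probe set (1438705_at) read 8.52, 8.54, 8.61 and 8.57 in WT and 9.39, 9.08, 9.50 and 8.93 in KO. The WT arrays were tightly grouped and every KO array lay above them, with a log2 difference of 0.67 (SE 0.14, 95% interval 0.36 to 0.98; limma, adjusted p = 0.0038). This call was lost with quantile normalization (0.41, adjusted p = 0.053). On 1418582_at, which read 7.61, 7.93, 7.26 and 6.88 in WT and 9.38, 8.39, 9.89 and 8.74 in KO, the difference was 1.68 (SE 0.34; limma, adjusted p = 0.0036). Another probe set, 1440964_s_at, differed by 0.56 (SE 0.26; limma, adjusted p = 0.1) with overlapping arrays, and by 0.75 (adjusted p = 0.034) without KO replicate 5. The remaining one, 1440963_at, had both means below a signal of 100 and was not tested.

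**Figure D2:**
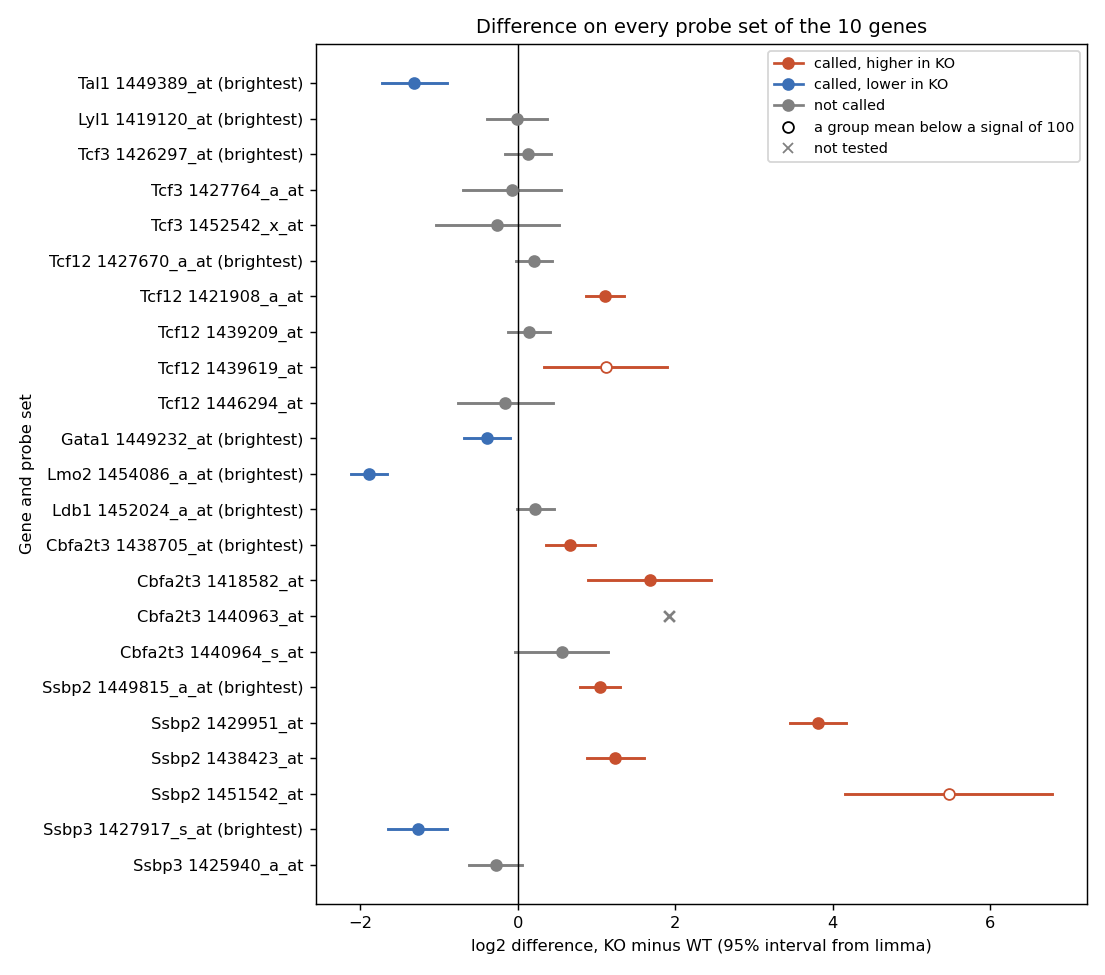
Log2 difference, KO minus WT (horizontal axis), of all 23 probe sets of the 10 genes (vertical axis), with 95% intervals from limma over 8 arrays. Red was called higher in KO, blue lower, grey not called, open circles have a group mean below a signal of 100 and the cross was not tested. All 4 Ssbp2 probe sets lie to the right, while the 5 of Tcf12 and the 2 of Ssbp3 differ among themselves.

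Of the 22 member probe sets tested, 12 were called (limma), 8 higher and 4 lower in KO, and 10 were not. Over the whole array 52.2% of tested probe sets were called, 34.4% higher and 17.7% lower, so the share of members called is near that of the array as a whole. On 11 of the 22 the KO arrays lay wholly beyond the WT arrays (7 above, 4 below), against 49.8% of all tested probe sets. The median log2 difference of the 22 was 0.18, against 0.17 for all. The probe sets 1439619_at of Tcf12 and 1451542_at of Ssbp2 passed the minimum through the KO group alone and had to differ to be tested. Within the KO group, replicates 2 and 4 both exceeded replicates 3 and 5 on 7 of the 10 brightest member probe sets, while the reverse order occurred on 0. Over all 22 tested member probe sets the counts were 12 and 3. That order was found on 29.2% of all tested probe sets and its reverse on 26.8%. The order was picked after the member values were seen, so its count among members is not a test of it.

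The balance between members was then compared within each array, since a ratio of 2 genes on the same array does not depend on how that array was scaled. For 12 pairs, the log2 ratio of the brightest probe sets in KO was set against that in WT by an exact permutation test over 70 assignments of the arrays, two-sided, whose smallest p is 0.029. This smallest p was reached by 11 of the 12 pairs (0.031 after Benjamini-Hochberg adjustment over the 12), in each of which the groups did not overlap. Over all pairs of tested genes, each on its brightest probe set, 44.9% had ratios that did not overlap, and the 12 pairs were chosen with earlier results known.

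Of the 5 ratios of Tal1 to another gene of the complex, the one against Cbfa2t3 shifted the most. The log2 ratio Tal1 over Cbfa2t3 lay between 5.05 and 5.23 in WT arrays and between 3.06 and 3.39 in KO arrays, a change of -1.98 (3.95-fold). Tal1 over Ldb1 changed by -1.54, Tal1 over Lyl1 by -1.30 and Tal1 over Gata1 by -0.92. For Tal1 over Lyl1 the 4 KO arrays were close together, at 1.23, 1.26, 1.15 and 1.03, although each gene by itself scattered among them. Against Lmo2, which fell more, the ratio of Tal1 went up by 0.57. The 5 shifts had the same direction in 4 of 4 KO arrays.

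The other partners shifted as well. Lmo2 over Ldb1 went from 3.92 ± 0.077 (SD, n = 4) in WT to 1.81 ± 0.098 (SD, n = 4) in KO, a change of -2.11, and Lmo2 over its relative Lmo4 changed by -2.58 (5.99-fold). Gata1 over Ldb1 changed by -0.62 and Gata1 over Gata2, the GATA factor that it replaces as red cells mature, by -0.65. After quantile normalization, which is not a factor per array, these became -0.33 (exact permutation test, adjusted p = 0.069) and -0.26 (adjusted p = 0.12). Ssbp2 over Ssbp3 rose by 2.31, which is 4.97-fold, with values of -0.68 to -0.33 in WT and 1.38 to 2.39 in KO. Ldb1 over Ssbp3 rose by 1.49. The ratio of the E proteins, Tcf3 over Tcf12, changed by -0.075 (exact permutation test, p = 0.69), with KO arrays on both sides of the WT range.

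**Figure D3:**
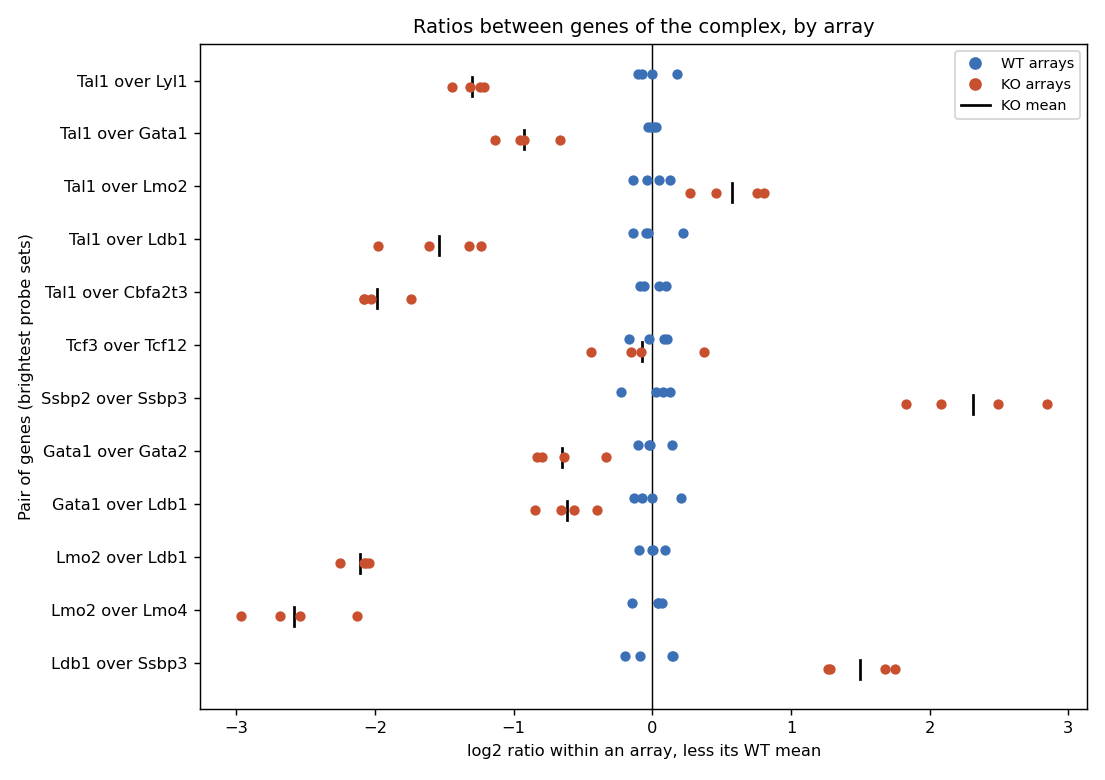
Within-array log2 ratio of 12 pairs of genes, less the WT mean of that ratio (horizontal axis), in 4 WT arrays (blue) and 4 KO arrays (red), with the KO mean as a black bar. The KO points are clear of the WT points in 11 pairs, to the left for Tal1 over Cbfa2t3 and Lmo2 over Ldb1 and to the right for Ssbp2 over Ssbp3, and overlap them for Tcf3 over Tcf12.

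How the arrays are scaled against each other moved the differences of all genes at once. Scaling to the hybridisation controls, bacterial transcripts added to the hybridization mix, shifted every log2 difference by 0.81 and scaling to the 75th percentile by -0.27, while poly-A controls, added before labelling, shifted it by 0.19 with the undetected Trpn probe set and by 0.056 without it. The median over all tested probe sets was 0.17 as deposited, -0.033 after quantile normalization, -0.12 with the 75th percentile, 1.01 with the hybridisation controls, 0.37 with the poly-A controls and 0.23 with these less Trpn. With the hybridisation controls, Tal1 (-0.50, adjusted p = 0.05) and Ssbp3 (-0.46, adjusted p = 0.06) lost their calls, Gata1 turned to 0.42 (adjusted p = 0.047), and Lmo2 was still lower (-1.08, adjusted p = 0.00013; all limma). Subtracting the median of all tested probe sets under the same scaling takes out a common shift by construction, so a scaling by 1 factor per array can move this relative difference only through which probe sets pass the minimum. Quantile normalization is not bound in this way, and it moved Tal1 from -1.48 to -1.004 and Gata1 from -0.56 to -0.21. Across the 6 scalings run, the relative difference was -2.09 to -1.62 for Lmo2, -1.52 to -1.004 for Tal1, -1.48 to -1.29 for Ssbp3 and -0.60 to -0.21 for Gata1. It was 0.84 to 1.16 for Ssbp2, 0.44 to 0.52 for Cbfa2t3 and 0.019 to 0.12 for Ldb1, while Lyl1 ranged from -0.22 to 0.085.

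**Figure D4:**
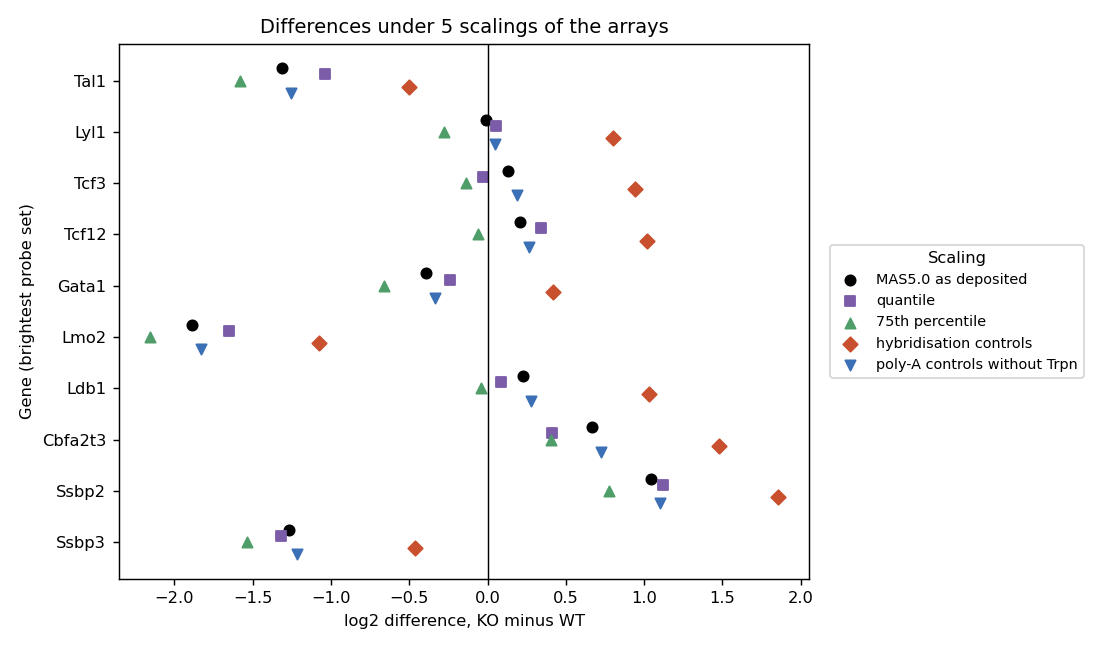
Log2 difference, KO minus WT (horizontal axis), of the brightest probe set of the 10 genes (vertical axis) under 5 scalings of the arrays, each a symbol. Hybridisation control scaling moves all genes to the right by a common amount, and Lmo2, Tal1 and Ssbp3 stay left of 0 in all 5, whereas Gata1 and Lyl1 do not.

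As a description of each core gene's profile, the genes with the smallest root mean square distance over the 8 arrays were taken, with every profile centred on its WT mean, from 10914 genes. For Tal1 these were Nudt19 (0.0762), Nasp (0.0805) and, as the third, Ssbp3 (0.103), itself a member. For Gata1 they were Gar1, Fam98b and Nudc (0.0316 to 0.0438), for Lmo2 Slc66a2, Cdkn2c and Ift140 (0.0839 to 0.112) and for Ldb1 Rapgef6, Tbx6 and Etfrf1 (0.0517 to 0.0613). The distances are in log2 units.

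Paralogues of the members were looked at next. Of 7 tested paralogues, 1 was higher and 1 lower in KO. For these and the following lists, 34.4% of all tested probe sets were called higher and 17.7% lower. The lists count only the brightest probe set of each gene, so these shares and the median of 0.17 are a rough guide. A share over brightest probe sets alone is not given here. Lmo4, a LIM-only protein that also binds LDB1, rose by 0.70 (limma, adjusted p = 0.0024), and Runx1t1, the relative of Cbfa2t3 known as ETO, fell by 1.86 (limma, adjusted p = 0.00019). Gata2 had a difference of 0.26 on its brightest probe set (limma, adjusted p = 0.082) and 0.69 on its other one. Cbfa2t2, Tcf4 and Ldb2 were not called on their brightest probe sets (0.14, 0.34 and 0.34). Their other tested probe sets differed by 0.62 to 2.58, 0.70 to 1.85 and 0.28 to 1.09. Those of Runx1t1 differed by -1.29 to -0.38. Gata3, Tal2 and Lmo1 were below a signal of 100 in all arrays. The median log2 difference of the 7 was 0.26, against 0.17 for all tested probe sets, and -0.0075 with 75th percentile scaling.

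Of 5 tested inhibitors of helix-loop-helix pairing, of GATA1 or of LDB1, 3 were higher and 0 lower in KO, where 34.4% of the array was higher. The median of the 5 was 0.53, against 0.17 for all tested probe sets. The list median was 0.54 against -0.033 after quantile normalization and 0.26 against -0.12 with 75th percentile scaling. With the hybridisation controls, where 6 genes of the list were called higher, it was 1.40 against 1.01. With the poly-A controls it was 0.79 against 0.37, and without Trpn 0.59 against 0.23. Id1, Id3 and Id2, which sequester E proteins, rose by 0.93, 0.66 and 0.53 (limma, adjusted p of 0.0051, 0.0046 and 0.04). Spi1, the gene of PU.1, an opponent of GATA1, differed by 0.44 and Rlim, a ubiquitin ligase of LDB1, by 0.25, neither called. The other tested probe sets of Rlim differed by -0.27 to 1.15. With the replicate number as a block, 1 of the genes was called.

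Of 21 tested cofactors that the complex recruits or meets on chromatin, 6 were higher and 3 lower, close to the shares of the array, with a median of 0.15 against 0.17. Runx1, a blood stem cell factor, rose by 1.34 on its brightest probe set (other probe sets -0.085 to 1.93), and Etv6 by 1.13. Hdac2, a histone deacetylase, and Chd4, a remodelling ATPase, had differences of -0.72 and -0.56, but with hybridisation control scaling these became 0.088 and 0.25, and the other probe sets of Chd4 differed by 0.51 to 0.87. Under that scaling 19 cofactors were higher and 0 lower, and with 75th percentile scaling 3 were higher and 6 lower.

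On their brightest probe sets, genes that the complex is known to activate were lower in KO, with 2 exceptions among those tested. Of 11 tested, 9 were lower and 1 higher in KO, where 17.7% of the array was lower, with a median of -0.86, against 0.17 for all tested probe sets. Klf1, which belongs to this list, was itself the gene removed, and Epb42, a red cell membrane protein, fell by 2.25 (limma, adjusted p = 1.6e-05). Zfpm1, the gene of the GATA1 cofactor FOG1, rose by 0.44 (limma, adjusted p = 0.0034), and Gfi1b was not called (0.29). Bcl2l1, counted among the lower genes, differed by -0.59 on its brightest probe set but by 0.22 and 0.26 on its others. With hybridisation control scaling 2 were lower and 2 higher, and the median of the list was -0.047. With poly-A control scaling 6 were lower and 1 higher. Several of these genes are also red cell markers (Slc4a1, Epor, Kel and Rhag), and all 4 were called lower in the deposited scaling, though Kel and Rhag turned to 0.071 and 0.15 with hybridisation controls and the other Slc4a1 probe sets, at -1.46 and 1.46, disagreed with each other. Ahsp was not analysed here.

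Of 5 genes that the complex or GATA1 is known to repress as red cells mature, 3 were higher and 0 lower (34.4% and 17.7% over the array), with a median of 0.37. Myc rose by 0.47, Hhex by 0.42 and Kit, the stem cell factor receptor, by 0.37 (limma, adjusted p of 0.0056, 0.007 and 0.023). Myb had a difference of -0.14 and was not called. With 75th percentile scaling none of the 3 rises was called and Myb was called lower (-0.40, adjusted p = 0.0071; limma).

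Markers of other liver cells also differed between the groups, and their part in the differences above was not tested. Of 8 endothelial markers, 6 were higher and 0 lower (3 and 1 with 75th percentile scaling), with Pecam1 at 1.73 and Kdr at 1.19, and signals that summed to between 5630 and 6020 in WT arrays and between 6980 and 8850 in KO arrays. Endothelium and megakaryocytes also express Tal1, Lmo2, Lyl1 and Ldb1. Of 6 megakaryocyte markers, 4 were higher and 0 lower (Vwf 1.78 and Itga2b 1.76), with sums of 23300 to 26400 in WT and 27700 to 35200 in KO. Pf4 (0.30) and Ppbp (0.043) were not called (limma, adjusted p of 0.059 and 0.78). They have the brightest probe sets of the 6 (WT means of 13.44 and 13.31) and so weigh most in these sums. After quantile normalization 6 were higher, and with 75th percentile scaling 3. Of 5 progenitor markers 2 were higher and 0 lower (sums of 1890 to 2100 and 2450 to 2830). Of 7 hepatocyte precursor markers 1 was higher and 4 lower (sums of 186000 to 211000 and 124000 to 155000), although after quantile normalization 0 were lower and with hybridisation control scaling 3 were higher and 0 lower. Of 8 macrophage markers 0 were higher and 1 lower (sums of 16200 to 20100 and 11100 to 24300), but 4 were higher with hybridisation control scaling and 4 lower with the 75th percentile. Among mast cell markers Fcer1a, Tpsb2 and Cma1, and among lymphoid markers Cd79a, Cd3e and Ebf1, were below a signal of 100 in every array. Of the tested ones, 1 of 3 mast cell markers was higher and 1 of 2 lymphoid markers lower, but with quantile normalization or 75th percentile scaling 0 mast cell markers were higher and 1 was lower.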

How the data were processed

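Total RNA of fetal liver was labelled and put on Affymetrix mouse genome arrays by the authors, with 1 array for each of 4 WT and 4 Eklf KO embryos. The deposited intensities are MAS5.0 signals on a linear scale, 1 for each of 45101 probe sets and each array, and the tools listed in the submitters' processing notes are MAS5 and R 3.0.2. Of the probe sets, 34945 have 1 platform symbol, 932 several and 9160 none, and 64 are controls. For the present tables log2 was taken without a pseudocount. The 23379 probe sets other than controls whose mean in WT or in KO exceeded a signal of 100 entered limma 3.58.1 under R 4.3.3 (lmFit, then eBayes, two-sided, with no covariate beside genotype). A probe set was called where its p, adjusted by Benjamini-Hochberg over all of these, was under 0.05. Genes with several probe sets are described by the one with the highest mean over the 8 arrays first and by the others beside it. Folds against a group mean under 100 use 100 and read "at least". Within-array ratios of 12 pairs were compared by exact permutation tests in Python 3.11.15 with numpy 2.4.6. Groups follow the sample labels. Since each array is an embryo, p-values set a difference against the spread between embryos, which limma estimates partly from all probe sets. Precision is limited by the number of embryos.

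The members, gene lists and pairs were chosen with earlier results of these data known. All member probe sets are named. From a list, at most 2 called genes are named for their rise and 2 for their fall, by the size of the difference on the brightest probe set. Further list genes (Gata2, Cbfa2t2, Tcf4, Ldb2, Gfi1b, Bcl2l1, Myb, Spi1, Rlim, Id2, Kit, Slc4a1, Epor, Kel, Rhag, Pf4 and Ppbp) were named after their values were seen. For Tal1, Gata1, Lmo2 and Ldb1, the 3 genes nearest in profile are named. Start windows of 300 bases came from a RefSeq table of build GRCm38.p6, matched by symbol.

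Results were recomputed after quantile normalization, with the arrays scaled to their 75th percentile, to the hybridisation controls or to the poly-A controls, and with a pseudocount of 16 or 64. They were also recomputed with the minimum signal dropped, raised to 200 or applied to the mean of all arrays, with limma's trend and robust fits, with the methods' t-test, with replicate number as a block, with each array left out and with the mean of a gene's tested probe sets. Poly-A scaling without the Trpn probe set, which read under 20 in every array, was chosen after seeing the data. The limma and permutation steps were tested on simulated data.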

Additional observations from a re-analysis of the deposited data

Results flagged for a closer look

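In 5 of 70 groups of 4 arrays (each member probe set and each ratio, in WT and in KO), 1 array lay far from the other 3 by Dixon's test at the 95% level, which chance alone gives in about 1 of 20 groups. For Cbfa2t3 on 1440963_at, a probe set with both means below a signal of 100, WT replicate 4 read 5.00 on the log2 scale. For Tcf12 on 1421908_a_at, KO replicate 3 read 10.88, above the other KO arrays. For the log2 ratio Tal1 over Cbfa2t3, KO replicate 2 was at 3.39 and nearest to WT. For Lmo2 over Ldb1, KO replicate 5 was at 1.67 and farthest from WT. For Lmo2 over Lmo4, WT replicate 3 was at 4.48, below the other WT arrays but above every KO array.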

How the results depend on the processing

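Lmo2, Ssbp2 1449815_a_at, 1429951_at and 1438423_at, Cbfa2t3 1418582_at and Tcf12 1421908_a_at were called in their direction in every setting run. Ssbp2 1451542_at was called in the 21 settings that tested it and not tested with the minimum on the mean of all arrays. With hybridisation control scaling 20684 probe sets were called over the array, and 16 member probe sets were higher and 1 lower. Signs turned for Gata1 (0.42), Lyl1 (0.80), Tcf3 1427764_a_at (0.74) and 1452542_x_at (0.55), Tcf12 1446294_at (0.65) and Ssbp3 1425940_a_at (0.53) under that scaling. With 75th percentile scaling they turned for Ldb1 (-0.043), Tcf3 1426297_at (-0.14), Tcf12 1427670_a_at (-0.061) and 1439209_at (-0.12). With quantile normalization they turned for Lyl1 (0.052), Tcf3 1426297_at (-0.031) and Tcf12 1439209_at (-0.076), and the ratios Gata1 over Gata2 (-0.26, exact permutation test, adjusted p = 0.12) and Gata1 over Ldb1 (-0.33, adjusted p = 0.069) no longer passed. With poly-A scaling they turned for Lyl1 (0.18, and 0.045 without Trpn), Tcf3 1427764_a_at (0.12) and Tcf12 1446294_at (0.034), and with the mean of probe sets for Tcf3 (-0.066). The cause of these turns beyond the common shift was not tested. Except for Gata1 with hybridisation control scaling, the probe sets that turned were not called in the deposited scale. The methods' t-test at their unadjusted threshold called 12245 probe sets over the array and 14 members, and 9414 and 10 after Benjamini-Hochberg adjustment.

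Same-numbered WT and KO arrays did not deviate together (correlations -0.00084, -0.082 and -0.027), and not every array correlated best with its own number. Deviations over so few arrays cannot show whether the embryos were paired. With the replicate number as a block, 7780 probe sets were called over the array, 11 of the members (8 higher, 3 lower) and 28 list genes in place of 46, and Lyl1 (0.033) and Tcf3 1427764_a_at (0.11) changed sign. In that fit WT replicate 1 and KO replicate 5 have no partner of the same number and add nothing to the difference. It thus also rests on fewer arrays than the main fit.

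Leaving out 1 array gave 10626 to 12190 calls over the array, 10 to 12 among members and 40 to 48 in the lists. Signs turned for Lyl1 (range -0.13 to 0.10) without WT replicate 3, KO replicate 3 or KO replicate 5, for Tcf3 1427764_a_at (-0.29 to 0.14) without WT replicate 1 or KO replicate 3, for Tcf3 1452542_x_at (-0.50 to 0.019) without KO replicate 5, for Tcf12 1446294_at (-0.37 to 0.057) without WT replicate 2 and for Tcf3 over Tcf12 without KO replicate 3. The ratios with 1 array left out cannot go below an exact permutation p of 0.057. Their changes were -1.34 to -1.24 (Tal1 over Lyl1), -1.01 to -0.85 (Tal1 over Gata1), 0.49 to 0.67 (Tal1 over Lmo2), -1.64 to -1.39 (Tal1 over Ldb1), -2.06 to -1.95 (Tal1 over Cbfa2t3), -0.22 to 0.046 (Tcf3 over Tcf12), 2.13 to 2.47 (Ssbp2 over Ssbp3), -0.76 to -0.59 (Gata1 over Gata2), -0.69 to -0.54 (Gata1 over Ldb1), -2.14 to -2.06 (Lmo2 over Ldb1), -2.73 to -2.45 (Lmo2 over Lmo4) and 1.41 to 1.57 (Ldb1 over Ssbp3).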
